A study of Mus musculus with 5 samples.

Results

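Mature migratory dendritic cells were taken from tumours as the cell barcodes that carried RNA of both Ccr7 and Fscn1. A barcode was kept with at least 500 unique molecular identifiers (UMIs, which count RNA molecules), at least 250 genes and at most 10% of UMIs from mitochondrially encoded genes. It was a member with at least 1 UMI of Ccr7, at least 1 of Fscn1, at least 3 of both together, none of Cd3d, Cd3e and Cd3g, and at most 5 of C1qa, C1qb and C1qc together. Of 57661 cells kept, 316 were members. They numbered 34, 25 and 35 in the libraries Scramble 1, 2 and 3 and 120 and 102 in JAG2KO 1 and 2. Members were thus chosen by their UMI counts of these 8 genes, whose levels in members are given as a description with no test.

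The cells came from flank tumours of mice injected with Lewis lung carcinoma (LLC) cells, a mouse lung cancer line. In the Scramble group (3 libraries) the LLC cells carried a guide RNA of scrambled sequence, and in the JAG2KO group (2 libraries) a guide against Jag2, a ligand of Notch receptors. The edit was made in the tumour cells, and the mice themselves carried no edit named in the labels. The mouse strain, sex and age, and whether each library came from 1 animal, are not given in the sources used here. Tumours were collected at the endpoint of the experiment and digested with Liberase. Live cells positive for CD45, a protein found on leukocytes, were sorted before droplet-based 3' RNA sequencing. With no label saying that libraries of a group came from separate animals, the p-values here reflect the spread among these libraries, which may be technical.

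Dendritic cells take up antigen in tissue and, on maturation, switch on CCR7, the chemokine receptor that guides them through lymphatic vessels to lymph nodes, and the actin-bundling protein fascin (Fscn1). The same switch raises chemokines that attract T cells, surface molecules that stimulate or restrain them, and interleukin 12, whose p40 chain is encoded by Il12b, while uptake of antigen and new synthesis of MHC class II fall. It can be entered from either lineage of conventional dendritic cell, cDC1 (marked by Xcr1 and Clec9a) or cDC2 (marked in mice by Cd209a, among others). Members were therefore set beside 178 cells with at least 2 UMIs of Xcr1 and Clec9a together (Xcr1 or Clec9a cells) and 369 cells with at least 2 UMIs of Cd209a and none of Xcr1 and Clec9a (Cd209a cells), under the same limits on Cd3 and C1q genes. The library was the replicate throughout, and levels are in CPM, the UMIs of a gene per 1000000 UMIs of the summed cells of a class in a library.

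Libraries held 10262 to 21854 barcodes and 84788907 to 111680641 UMIs, and 8221 to 19338 cells were kept per library. JAG2KO 2 stood apart, with the most cells and the lowest median depth, 2422 UMIs per cell against 8064.5 to 8965 in the other libraries. Members of JAG2KO 2 were less shallow, with a median of 4164 UMIs against 4333 to 6394 in the other libraries. Library pairs shared 26 to 74 barcode sequences, and no member shared its barcode with a member of another library. Jag2 had 207 to 421 UMIs in a whole library and 12 UMIs in all members together. The sort is meant to remove the edited tumour cells, so these counts do not check the labels.

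Members were checked 1 by 1 for RNA of fibroblasts and tumour cells and of neutrophils, and 9 of the 316 reached the limits set. Of these, 4 had at least 10 UMIs of a list of 13 fibroblast and tumour cell genes, and 5 had at least 20 UMIs of the neutrophil genes S100a8 and S100a9. The deepest were 1 member of Scramble 2 with 53021 UMIs and 1 of JAG2KO 1 with 63426 UMIs. Each held 1 UMI of Ccr7, 3 of Fscn1, none of Ccl22 or Serpinb6b, and 37 and 18 UMIs of Rhox5, a homeobox gene on the fibroblast and tumour list. The Scramble 2 cell alone supplied 32.1% of the summed UMIs of that library's members. JAG2KO 2 held 5 of the 9 and the other 4 libraries 1 each. The 5 members with neutrophil genes also carried RNA of the class, with 5 to 46 UMIs of Ccr7, 2 to 9 of Fscn1 and 1 to 6 of Cacnb3. Leaving out the 9 thus also removes cells with genes of the maturation program. Results are given for all 316 members, and for the remaining 307 for some genes and counts only. Where only the 316 are given, the tumour-marker cell of Scramble 2 lowers the Scramble 2 level of every gene it lacked. The check on markers of other cells was chosen after the values were seen.

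Cells just inside and just outside the rule were few. There were 9 members with exactly 3 UMIs of Ccr7 and Fscn1 together and 243 with 10 or more, and 13 cells fell just outside with 1 UMI of each. Summed Ccl22 stood at 361 CPM in the members with 3 UMIs, 1171 in the 64 members with 4 to 9, 2715 in those with 10 or more, and 207 in the cells just outside. A further 119 cells met every condition but the limit on C1q, and 21 every condition but the one on Cd3. The former had 1070 CPM of Ccl22 and 9955 of Lyz2, a macrophage gene, and the latter had 3510 of Ccl22. Only 55 of the 316 members had no C1q UMI at all, 42 of them in JAG2KO 2.

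The 5 genes that mark the class were high in members of all 5 libraries. Ccr7 stood at 2610, 1713 and 2198 CPM in the libraries Scramble 1, 2 and 3 and at 2740 and 1898 in JAG2KO. Fscn1 stood at 2583, 1447 and 2232 in Scramble and at 2270 and 1993 in JAG2KO. Both rule genes overlapped between the groups and were lowest in Scramble 2, where the values without its tumour-marker cell were 2514 and 2104. Levels over the 5 libraries were 45.6 ± 40.6 (SD, n = 5) for Ccr7 and 0.502 ± 1.12 for Fscn1 in Xcr1 or Clec9a cells, and 109 ± 20.9 and 2.81 ± 2.51 in Cd209a cells.

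RNA of macrophages, the most numerous class of the sorted cells, was present in members at a few percent of its level in them. C1qa-rich cells (at least 20 UMIs of the C1q genes, 30190 cells, called macrophages here) gave the reference. Lyz2 in members was 3.18% to 5.70% of that level per library and Apoe 2.39% to 4.35%. The C1q genes were capped by the choice of members and are not used here, and the marker list below holds none of them. The summed list of 16 macrophage markers stood at 1775, 2591 and 1886 CPM in members of Scramble and at 1602 and 1008 in JAG2KO, all 16 detected, against 29285 to 40414 in macrophages. This sum was lower in both JAG2KO libraries than in any Scramble library. So it was in macrophages themselves, at 34541 to 40414 in Scramble and 29285 to 32983 in JAG2KO. In Xcr1 or Clec9a cells and in Cd209a cells the groups overlapped. The sum of 10 monocyte markers, of which Ace was at 0, was likewise lower in JAG2KO, with 330 and 340 CPM against 732, 817 and 711 in members of Scramble. Without the 9 members it was 325 and 228 against 785, 428 and 716. The drop was not particular to members. In macrophages the monocyte sum was 5164 to 5781 in Scramble and 4121 to 4173 in JAG2KO. In Cd209a cells it was 1696 to 2054 and 1435 to 1516, and in Xcr1 or Clec9a cells the groups overlapped. Of 11 plasmacytoid dendritic cell markers Ly6d, Cox6a2 and Klk1 were at 0, and the list summed to 173 to 357 CPM per library. Of 10 NK cell markers Ncr1, Prf1 and Klra8 were at 0, with a sum of 54.5 to 163, and of 10 B cell markers 5 were at 0, with a sum of 8.88 to 27.3. The part of these RNAs in the results below was not tested except where a value is given.

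**Figure D1:**
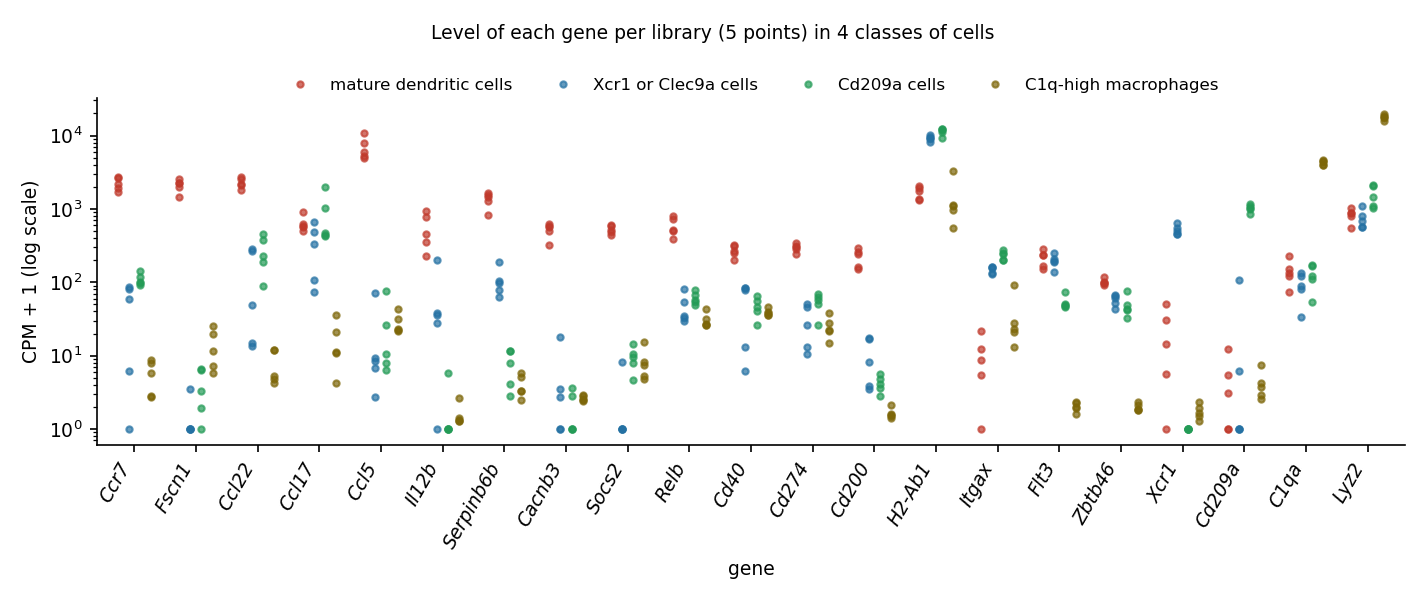
Level of 21 genes (log axis, CPM plus 1) in 4 classes of cells, with 1 point for each of the 5 libraries. Ccl22, Ccl5, Serpinb6b, Cacnb3 and Socs2 of mature dendritic cells lie above all points of the other classes, and H2-Ab1 lies below both other dendritic classes.

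Mature dendritic cells made up a larger share of the kept cells in both JAG2KO libraries than in any Scramble library. They were 0.358%, 0.242% and 0.426% of kept cells in Scramble 1, 2 and 3, with exact 95% Clopper-Pearson intervals of 0.248% to 0.50%, 0.157% to 0.357% and 0.297% to 0.592%. In JAG2KO 1 and 2 they were 1.17% (0.969% to 1.40%) and 0.527% (0.430% to 0.640%), intervals that cover counting error only. The groups did not overlap, and the 2 JAG2KO libraries differed from each other by more than either interval is wide. The mean was 0.342% ± 0.0929 (SD, n = 3) in Scramble and 0.848% ± 0.453 (SD, n = 2) in JAG2KO, a fold of 2.48 with p = 0.1 in a two-sided exact permutation test, the smallest p that 10 splits of 3 against 2 allow. The fold was 1.54 without JAG2KO 1 and 2.51 without the 9 members with markers of other cells. With at most 1 UMI of C1q in place of 5 it was 4.03, and whether the lower depth of JAG2KO 2 plays a part in this value was not tested.

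Among dendritic cells alone, taken as members, Xcr1 or Clec9a cells and Cd209a cells, members were 24.6%, 27.2% and 23.6% in Scramble and 41.8% and 51.5% in JAG2KO. The means were 25.2% ± 1.82 (SD, n = 3) and 46.7% ± 6.86 (SD, n = 2), a fold of 1.86 with p = 0.1 in the same exact permutation test, and the groups did not overlap. With every cell thinned to 2000 UMIs, which left out 8693 kept cells of JAG2KO 2 and 1065 to 1495 of each other library, members were 33.0%, 28.7% and 32.0% in Scramble and 53.3% and 55.0% in JAG2KO. With no limit on C1q the fold was 1.56 with p = 0.2 in the exact permutation test, and with at most 1 UMI of C1q it was 3.95. Counts of the other dendritic classes were 35, 26 and 42 Xcr1 or Clec9a cells in Scramble and 37 and 38 in JAG2KO, and 69, 41 and 71 Cd209a cells in Scramble and 130 and 58 in JAG2KO.

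**Figure D2:**
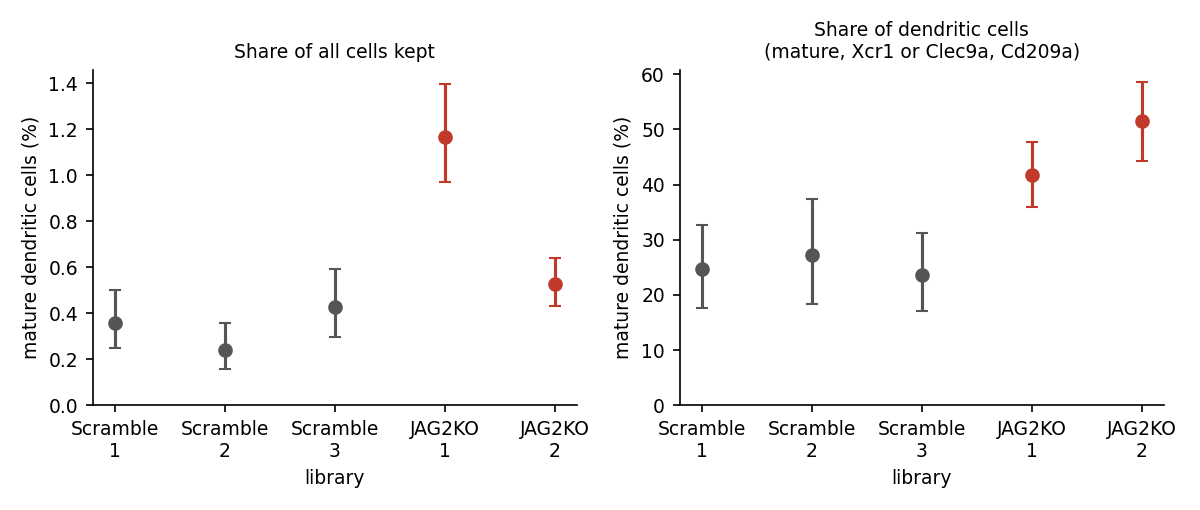
Share of mature dendritic cells (%) per library among all cells kept (left) and among dendritic cells (right), with exact 95% intervals for counting error. On the right the Scramble libraries lie between 23.6% and 27.2% and the JAG2KO libraries at 41.8% and 51.5%.

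Against the other dendritic cells, members differed in a large part of the genes measured. Each comparison paired the classes within a library, and a gene counted as higher or lower with an adjusted p under 0.05 in edgeR's quasi-likelihood test and a change of at least 2-fold. Against Xcr1 or Clec9a cells 1039 of 5916 genes tested were higher (17.6%) and 883 lower (14.9%). Against Cd209a cells 835 of 6088 were higher (13.7%) and 1027 lower (16.9%). Without the 9 members with markers of other cells, 2139 of 5978 genes (35.8%) and 2082 of 6083 (34.2%) were called in either direction. Of 5576 genes tested in both, 663 were higher in members than in either class (11.9%) and 493 lower than in either (8.84%). The list counts below are to be read against these shares, and against a median log2 fold change over all genes of 0.01 and -0.08.

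Genes of the maturation program of migratory dendritic cells were higher in members almost without exception. Of 35 genes listed besides the rule genes 33 were tested, of which 33 were higher than in Xcr1 or Clec9a cells (median log2 fold change 4.69) and 31 higher than in Cd209a cells (median 4.34). The list was assembled with results of these data known, so this count describes the class and is no independent evidence. Slco5a1 and Tmem150c, chosen as the genes of largest change, had 189 and 185 UMIs in members and none in either other dendritic class. Against 3 counts in the whole class, the limit that a count of 0 allows, Slco5a1 was at least 62.1-fold higher than in Xcr1 or Clec9a cells and at least 85.9-fold higher than in Cd209a cells.

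Ccl22 encodes a chemokine that draws CCR4-bearing T cells, regulatory T cells among them. It stood at 1820, 2155 and 2110 CPM in members of Scramble and at 2720 and 2580 in JAG2KO. Both JAG2KO libraries lay above the 3 Scramble libraries, but the Scramble 2 value was 3174 without the tumour-marker cell, above both. Xcr1 or Clec9a cells had 125 ± 137 (SD, n = 5) and Cd209a cells 265 ± 145, log2 differences of 4.79 ± 0.50 (SE) and 3.32 ± 0.21 (edgeR, adjusted p = 1.7e-06 and 1.06e-08). Members of every library lay above both classes.

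Ccl5, a chemokine that attracts effector T cells, showed the widest gap among the chemokines. Its level was 5921, 8016 and 4943 CPM in members of Scramble and 5338 and 10756 in JAG2KO. The groups overlapped, and JAG2KO 2 was the highest library. Xcr1 or Clec9a cells had 18.7 ± 28.9 (SD, n = 5), Cd209a cells 24.6 ± 29.7 and macrophages 27.3 ± 9.18. The log2 differences were 8.73 ± 0.44 (SE) and 8.03 ± 0.42 (edgeR, adjusted p = 1.85e-09 and 1.23e-09). Cells with at least 2 UMIs of the Cd3 genes had 1549 ± 696.

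Ccl17, which shares the receptor CCR4 with Ccl22, did not separate members from Cd209a cells. Members had 577, 624 and 574 CPM in Scramble libraries and 493 and 897 in JAG2KO, with overlap. It was higher than in Xcr1 or Clec9a cells (log2 difference 1.46 ± 0.32, edgeR, adjusted p = 0.00163), in 4 of 5 libraries. Against Cd209a cells the log2 difference was -0.16 ± 0.23 (edgeR, adjusted p = 0.59), and its sign turned under several alternatives. Of the 20 chemokines listed 17 were tested in each comparison, 6 being higher and 3 lower than in Xcr1 or Clec9a cells, and 3 higher and 6 lower than in Cd209a cells. Cxcl16, a ligand of CXCR6 on tissue T cells, was higher than in both (log2 1.35 ± 0.14 and 1.23 ± 0.16, edgeR, adjusted p = 1.9e-06 and 1.9e-05). Ccl4, an inflammatory chemokine, was lower than in both (log2 -3.19 ± 0.54 and -3.55 ± 0.23, edgeR, adjusted p = 0.000183 and 1.17e-08), and Cxcl9 was lower than in Xcr1 or Clec9a cells (log2 -1.73 ± 0.32, edgeR, adjusted p = 0.000386).

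Il12b stood at 453, 224 and 776 CPM in members of Scramble and at 946 and 351 in JAG2KO. The libraries spread over a wide range in both groups, which overlapped. Xcr1 or Clec9a cells had 60.4 ± 81.2 (SD, n = 5), with 203 in JAG2KO 2 alone, and Cd209a cells had 5 UMIs in all. The log2 differences were 3.61 ± 0.51 (SE) and 8.45 ± 0.33 (edgeR, adjusted p = 3.83e-05 and 1.04e-10). Serpinb6b, an intracellular protease inhibitor, stood at 1456, 817 and 1654 in Scramble against 1521 and 1281 in JAG2KO, with Scramble 2 the lowest, as it was for Il12b. The tumour-marker cell of Scramble 2, with 32.1% of the summed UMIs there, had no Serpinb6b UMI and lowers that value. Serpinb6b was higher than in Xcr1 or Clec9a cells, which had 105 ± 47.8, by 3.90 ± 0.24 on the log2 scale, and than in Cd209a cells by 7.66 ± 0.23 (edgeR, adjusted p = 1.08e-08 and 1.17e-11).

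Several genes of the program were nearly silent in the other dendritic cells. Cacnb3, a subunit of voltage-gated calcium channels, stood at 559, 321 and 612 CPM in members of Scramble and 491 and 588 in JAG2KO, from 1050 UMIs, against 8 UMIs in Xcr1 or Clec9a cells and 2 in Cd209a cells. The Scramble 2 value is lowered by the tumour-marker cell, which had no Cacnb3 UMI. The ratio of Cacnb3 to Cd209a cells had a counting interval of 198 to 5918. Socs2, an inhibitor of cytokine signalling, stood at 586, 442 and 487 in Scramble against 511 and 609 in JAG2KO, with 3 UMIs in Xcr1 or Clec9a cells. Its log2 difference to Cd209a cells was 6.06 ± 0.22 (edgeR, adjusted p = 5.52e-11). Adcy6, an adenylate cyclase, had 349 UMIs in members and none in Cd209a cells, a level at least 159-fold higher. Cd63, a tetraspanin of late endosomes, and Fabp5, a fatty acid carrier, were higher than in both classes (Cd63 log2 4.92 ± 0.20 and 4.34 ± 0.18, Fabp5 6.73 ± 0.27 and 3.74 ± 0.14). In these pairs the edgeR adjusted p lay between 5.91e-11 for Fabp5 and 2.41e-10 for Cd63 and Fabp5.

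NF-kB signalling drives much of dendritic cell maturation, with a classical arm and an alternative arm in which the kinase NIK (Map3k14) acts on p100 (Nfkb2) and its partner RelB. Of 25 pathway genes listed 24 were tested. Against Xcr1 or Clec9a cells 22 were higher and none lower (median log2 1.83), and against Cd209a cells 9 were higher and 3 lower (median 0.81). The 9 higher than in Cd209a cells included Nfkb2, Relb and Map3k14 with Birc2, Traf1, Traf2 and Traf3, and the 3 lower were Nfkbiz, Tnip3 and Bcl3.

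Relb stood at 728, 387 and 517 CPM in members of Scramble and 800 and 506 in JAG2KO, which overlapped, against 45.2 ± 21.4 (SD, n = 5) in Xcr1 or Clec9a cells and 59.9 ± 12 in Cd209a cells. The log2 differences were 3.91 ± 0.22 (SE) and 3.36 ± 0.17 (edgeR, adjusted p = 5.64e-09 and 8.7e-10). Nfkb2 was even across libraries, at 271, 297 and 285 in Scramble against 273 and 275 in JAG2KO, and higher by 2.71 ± 0.22 and 1.81 ± 0.16 on the log2 scale (edgeR, adjusted p = 1.52e-07 and 2.93e-07). Birc2, a ubiquitin ligase of this pathway, was higher by 4.05 ± 0.17 and 3.43 ± 0.17 (edgeR, adjusted p = 3.97e-10 and 8.7e-10). Map3k14 was higher by 2.69 ± 0.20 and 1.07 ± 0.22 (edgeR, adjusted p = 4.67e-08 and 0.000858). Nfkbia, the classical inhibitor, stood at 848, 642 and 912 in Scramble against 1153 and 1054 in JAG2KO. It was higher than in Xcr1 or Clec9a cells (log2 1.44 ± 0.22, edgeR, adjusted p = 7.5e-05), while Cd209a cells, at 1236 ± 305 (SD, n = 5), overlapped members.

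Promoters of this list were searched for the NF-kB consensus motif on both strands, since most of its genes were higher than in Xcr1 or Clec9a cells. In RefSeq windows from 250 bases before to 50 after a start (build GRCm38.p6), 4.505% of 32851 windows and 5.136% of 27025 genes held a match. Of the 21 pathway genes with a window 10 held one (47.62%), against 2 of 25 matched genes of the maturation program (8%). The 10 included Nfkb2 and Traf3, but also Tnip3 and Bcl3, which were lower than in Cd209a cells. Relb, Map3k14, Birc2, Traf1, Traf2 and Nfkbiz were not among them. A match is a run of letters and shows no binding. The 250 bases before the start of Nfkb2, at chr19:46304487-46304736 on the plus strand, and of Nfkbia, at chr12:55492648-55492897 on the minus strand, are shown because the first gene was higher than in both classes and the second than in 1 of them. Capitals mark the matches, which number 3 in Nfkb2, some overlapping, beginning between 39 and 11 bases before the start, and 1 in Nfkbia, 29 bases before it.
Nfkb2: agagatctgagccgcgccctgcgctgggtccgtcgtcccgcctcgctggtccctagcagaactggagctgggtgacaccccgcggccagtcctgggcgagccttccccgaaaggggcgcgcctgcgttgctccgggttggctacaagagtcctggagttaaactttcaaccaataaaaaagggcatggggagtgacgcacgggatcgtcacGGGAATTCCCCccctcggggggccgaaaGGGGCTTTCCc
Nfkbia: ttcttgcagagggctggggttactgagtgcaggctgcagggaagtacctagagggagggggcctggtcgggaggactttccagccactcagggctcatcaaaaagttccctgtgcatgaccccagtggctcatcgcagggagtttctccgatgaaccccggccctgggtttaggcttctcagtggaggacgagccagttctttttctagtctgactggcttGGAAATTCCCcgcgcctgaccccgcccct

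Most molecules that stimulate T cells were higher than in Xcr1 or Clec9a cells, and fewer were higher than in Cd209a cells. Of 24 genes of co-stimulation and cytokines 14 and 15 were tested. Against Xcr1 or Clec9a cells 11 were higher and 1 (Cd48) lower, with a median log2 of 2.20. Against Cd209a cells 7 were higher and 3 (Il1b, Cd48, Tnfsf9) lower, with a median of 0.87. Cd40, the receptor for T cell help, stood at 324, 309 and 202 CPM in members of Scramble and 270 and 248 in JAG2KO, with overlap, and was higher by 2.79 ± 0.36 and 2.57 ± 0.22 on the log2 scale (edgeR, adjusted p = 1.6e-05 and 2.09e-07). Il15ra, which presents interleukin 15 to T and NK cells, stood between 99.4 and 114 in every library and was higher by 4.76 ± 0.33 and 6.0 ± 0.37 (edgeR, adjusted p = 2.3e-08 and 8.16e-09).

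Not every activation marker separated members from both classes. Cd80, a ligand of CD28, was higher than in Xcr1 or Clec9a cells (log2 3.24 ± 0.25, edgeR, adjusted p = 7.55e-08) and passed the adjusted p but not the 2-fold limit against Cd209a cells (log2 0.87 ± 0.17, edgeR, adjusted p = 0.000548). Cd83, which keeps MHC class II at the surface, was higher than in Xcr1 or Clec9a cells (log2 1.49 ± 0.14, edgeR, adjusted p = 5.85e-07). Against Cd209a cells its log2 difference was 0.32 ± 0.15 (edgeR, adjusted p = 0.0836), and 0.54 with adjusted p = 0.000492 in edgeR without the 9 members. Cd86 stood at 168 ± 26.8 (SD, n = 5) in members, 152 ± 33.8 in Xcr1 or Clec9a cells and 184 ± 42.3 in Cd209a cells, within the spread of each other.

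Several molecules that restrain T cells were also higher in members. Of 22 regulatory genes listed 15 and 16 were tested, and 11 were higher and 3 lower than in Xcr1 or Clec9a cells (median log2 3.65), and 9 higher and 5 lower than in Cd209a cells (median 1.85). Lgals9, Vsir and Tgfb1 were lower in both comparisons. Cd274 (PD-L1) stood at 342, 242 and 281 CPM in members of Scramble and 307 and 302 in JAG2KO. The groups overlapped, and every library lay above Xcr1 or Clec9a cells, at 28.5 ± 18.6 (SD, n = 5), and Cd209a cells, at 52.8 ± 16.9 (log2 3.72 ± 0.29 and 2.56 ± 0.18, edgeR, adjusted p = 8.48e-08 and 2.54e-08). Pdcd1lg2 (PD-L2) was higher by 3.65 ± 0.40 and 2.70 ± 0.26 (edgeR, adjusted p = 2.54e-06 and 7.6e-07). Cd200, a ligand of an inhibitory receptor of myeloid cells, was higher by 4.81 ± 0.31 and 6.16 ± 0.26 (edgeR, adjusted p = 1.39e-08 and 1.65e-10). Il4i1, an enzyme that degrades aromatic amino acids, was higher by 6.04 ± 0.42 and 2.49 ± 0.23 (edgeR, adjusted p = 2.48e-08 and 4.69e-07). Aldh1a2, which makes retinoic acid, varied most among these genes, at 53.3, 0 and 369 in Scramble against 22.9 and 50.4 in JAG2KO.

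Genes of MHC class II presentation were lower in members. Of 18 listed 16 were tested, and 11 were lower and 2 higher than in Xcr1 or Clec9a cells (median log2 -1.22), and 12 lower and 2 higher than in Cd209a cells (median -1.74). H2-Ab1, a class II chain, stood at 2028, 1344 and 1745 CPM in members of Scramble and 1318 and 1928 in JAG2KO. Every library lay far below Xcr1 or Clec9a cells, at 9235 ± 765 (SD, n = 5), and Cd209a cells, at 11334 ± 1200 (log2 -2.30 ± 0.11 and -2.69 ± 0.13, edgeR, adjusted p = 1.14e-09 and 5.71e-10). H2-Aa, the partner chain, was lower by less, -1.03 ± 0.10 and -1.54 ± 0.08 (edgeR, adjusted p = 9.62e-07 and 2.01e-09). Ciita, the transactivator of class II genes, was lower too (log2 -2.27 ± 0.21 and -2.46 ± 0.19, edgeR, adjusted p = 4.78e-07 and 8.04e-08). H2-DMb1, which helps to load peptides, was lower in both comparisons, with log2 differences of -3.87 ± 0.22 and -4.16 ± 0.21 (edgeR, adjusted p = 5.64e-09 and 8.7e-10).

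March1, the ubiquitin ligase that removes class II from the surface, had 10 UMIs in members, 315 in Xcr1 or Clec9a cells and 192 in Cd209a cells (log2 -4.72 ± 0.41 and -3.68 ± 0.47, edgeR, adjusted p = 2.3e-07 and 1.2e-05). The 2 class II genes that were higher in both comparisons were H2-Eb2 and Lgmn. H2-Eb2, a seldom expressed class II chain, stood at 111, 163 and 213 CPM in Scramble libraries and 151 and 94.5 in JAG2KO, against 5.53 ± 5.09 (SD, n = 5) and 6.71 ± 6.32 in the other classes (log2 4.80 ± 0.40 and 4.41 ± 0.38, edgeR, adjusted p = 1.49e-07 and 2.09e-07). Its neighbour H2-Eb1, of related sequence, was lower in both (log2 -1.17 ± 0.11 and -1.59 ± 0.09, edgeR, adjusted p = 4.67e-07 and 3.37e-09). Lgmn, a lysosomal protease, was higher by 2.17 ± 0.19 and 1.01 ± 0.19 (edgeR, adjusted p = 2.45e-07 and 0.000502).

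MHC class I moved the other way in part. All 23 genes listed were tested, with 8 higher and 2 lower than in Xcr1 or Clec9a cells and 9 higher and 2 lower than in Cd209a cells. B2m, the shared light chain, stood at 3715, 2512 and 2973 CPM in members of Scramble and 3429 and 2977 in JAG2KO, and was higher by 1.55 ± 0.12 and 1.31 ± 0.11 on the log2 scale (edgeR, adjusted p = 5.95e-08 and 1.31e-07). H2-Q6 was higher by 2.51 ± 0.19 and 2.85 ± 0.18 (edgeR, adjusted p = 5.74e-08 and 1.06e-08), a value that is uncertain because H2-Q genes are near copies of each other. The chaperones Calr and Pdia3 were lower in both comparisons.

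**Figure D3:**
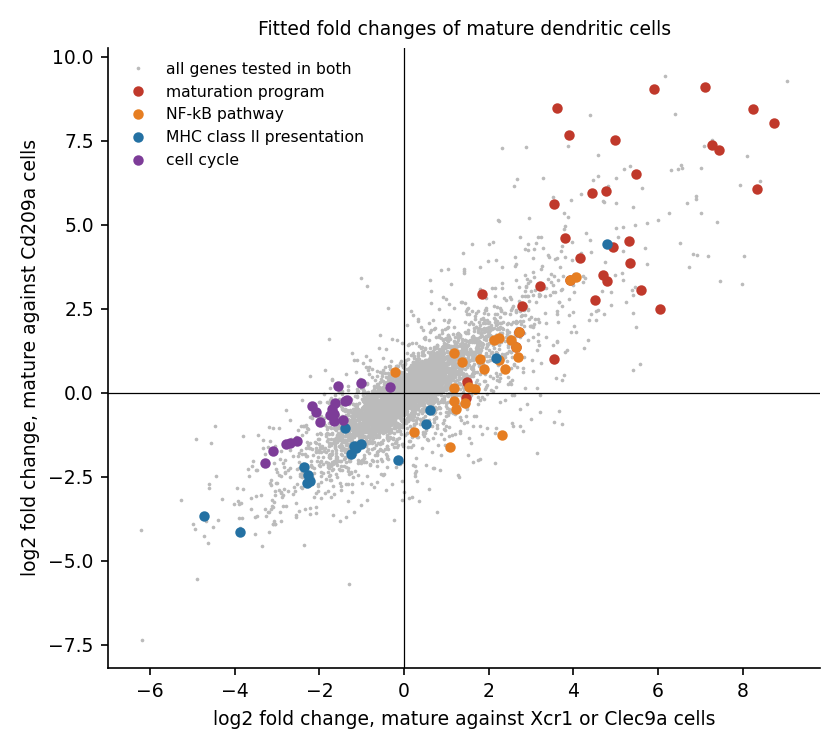
Fitted log2 fold changes of mature dendritic cells against Xcr1 or Clec9a cells (horizontal) and against Cd209a cells (vertical), 1 point for each of the 5576 genes tested in both. Maturation genes lie at the upper right, all but 2 class II genes at the lower left or near the axes, NF-kB genes mostly right of the vertical line, and cell cycle genes left of it.

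Tnfrsf4 (OX40), a co-stimulatory receptor best known on T cells, was even across libraries, at 102, 90.8 and 103 CPM in members of Scramble and 104 and 90.3 in JAG2KO. It had no UMI in Xcr1 or Clec9a cells, so that members were at least 65.3-fold higher, set against 3 counts in the class, and 3 UMIs in Cd209a cells, where the ratio had a counting interval of 30.5 to 442. Of TNF superfamily receptors and ligands 9 of 10 tested were higher and 1 lower than in Xcr1 or Clec9a cells, and 6 of 12 higher and 2 lower than in Cd209a cells. T cells, with a Tnfrsf4 level of 667 ± 160 (SD, n = 5), also carried this gene. Of 15 T cell markers Trbc1 and Bcl11b were at 0 UMIs in members, and the list summed to 228 to 338 CPM per library, of which Il7r gave 156 to 294. The part of T cell RNA in the Tnfrsf4 level was not tested.

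Signalling lists went different ways. Of genes that respond to interferon gamma 10 of 16 tested were higher and 3 lower than in Xcr1 or Clec9a cells (median log2 1.79), and 10 of 19 higher and 3 lower than in Cd209a cells (median 1.57), among them guanylate-binding proteins such as Gbp2, Gbp5 and Gbp9. Of type I interferon genes 4 of 30 were higher and 6 lower, and 4 of 33 higher and 12 lower (medians -0.35 and -0.54). Of IL-4 and TSLP signalling genes, many shared with other lists, 14 of 17 were higher and 1 lower, and 7 of 17 higher and 1 lower, with Crlf2, the TSLP receptor chain, the gene lower in both. Of lysosomal genes 7 of 24 were higher and 7 lower, and 4 higher and 10 lower, and of lipid genes 5 of 17 higher and 2 lower, and 4 of 19 higher and 2 lower. Of genes that tissue dissociation induces, such as Fos and Egr1, 2 of 24 were higher and 4 lower, and 0 of 25 higher and 11 lower.

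The genes of largest decrease in both comparisons lay mostly outside these lists. Ckb, the brain-type creatine kinase, stood at 66.6, 12.1 and 22.8 CPM in members of Scramble and 10.3 and 35.7 in JAG2KO, against 941 ± 132 (SD, n = 5) in Xcr1 or Clec9a cells and 423 ± 59.2 in Cd209a cells. Plbd1, a lysosomal phospholipase-like protein, stood at 39.9, 0 and 57.0 against 30.9 and 63.0, with 947 ± 152 and 579 ± 106 in the other classes. Every library of members lay below every library of those classes for both genes. The log2 differences were -4.98 ± 0.27 and -3.92 ± 0.28 for Ckb and -4.39 ± 0.28 and -3.79 ± 0.29 for Plbd1 (edgeR, adjusted p = 3.03e-09, 3.45e-08, 1.39e-08 and 5.22e-08). Sept3, a septin, and Egr3, a transcription factor, had 7 and 6 UMIs in members, against 650 and 163 in Xcr1 or Clec9a cells and 179 and 141 in Cd209a cells.

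Receptors and structural genes differed between the classes. Of chemokine and chemoattractant receptors 5 of 12 tested were higher and 4 lower than in Xcr1 or Clec9a cells, and 2 of 11 higher (Cxcr5, Ccr6) and 7 lower than in Cd209a cells. Ccr2, the receptor for monocyte-attracting chemokines, was lower in both comparisons, with log2 differences of -3.10 ± 0.22 and -3.90 ± 0.20 (edgeR, adjusted p = 3.41e-08 and 1.02e-09). Of 28 genes of migration and the cytoskeleton 28 and 27 were tested, with 14 higher and 2 lower than in Xcr1 or Clec9a cells and 13 higher and 3 lower than in Cd209a cells. Marcksl1, a regulator of actin, stood at 1052, 515 and 703 CPM in members of Scramble and 784 and 831 in JAG2KO, and was higher by 3.60 ± 0.22 and 2.35 ± 0.15 (edgeR, adjusted p = 1.08e-08 and 1.24e-08). Il7r, a receptor chain for interleukin 7 and TSLP, was higher by 4.34 ± 0.33 and 1.57 ± 0.21 (edgeR, adjusted p = 5.95e-08 and 1.61e-05). Of 19 genes of endocytosis and pathogen sensing tested against Cd209a cells, 13 were lower and 1 was higher, Ly75, the endocytic receptor DEC-205 (log2 6.15 ± 0.34, edgeR, adjusted p = 2.92e-09). Against Xcr1 or Clec9a cells 4 of 16 were lower and 3 higher.

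Most genes of each lineage were lower in members than in that lineage's own class. Of 17 cDC1 genes tested against Xcr1 or Clec9a cells, 14 were lower and none higher (median log2 -4.25). Of 18 cDC2 genes tested against Cd209a cells, 14 were lower and none higher (median -2.55). Each of these classes was chosen by UMIs of genes of its lineage, and a gene could enter the test by its level there alone. Both counts thus describe the classes and are no independent evidence. Against the other class the lists went both ways. Of 10 cDC2 genes tested against Xcr1 or Clec9a cells 4 were higher and 2 lower (median 0.49), and of 11 cDC1 genes tested against Cd209a cells 3 were higher and 6 lower (median -1.37). Itgae (CD103) had 3 UMIs in members and 456 in Xcr1 or Clec9a cells, and Mgl2 was lower than in Cd209a cells (log2 -5.69 ± 0.25, edgeR, adjusted p = 2.45e-10). Itgax (CD11c), often used to sort dendritic cells, had 23 UMIs in members and was lower than in both (log2 -3.53 ± 0.32 and -4.22 ± 0.30, edgeR, adjusted p = 3.51e-07 and 2.55e-08). Flt3, the growth factor receptor of dendritic cells, stood at 235, 151 and 281 CPM in members of Scramble and 233 and 168 in JAG2KO, close to Xcr1 or Clec9a cells at 195 ± 40.2 (SD, n = 5; log2 0.33 ± 0.16, edgeR, adjusted p = 0.1) and above Cd209a cells at 52.1 ± 11.3 (log2 2.14 ± 0.18, edgeR, adjusted p = 1.32e-07). Without the 9 members Flt3 passed the adjusted p against Xcr1 or Clec9a cells (log2 0.46, edgeR, adjusted p = 0.00874).

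RNA of transcription factors of both lineages and of maturation was found in the summed members. Summed values do not show whether the same cells held them. Irf8, a cDC1 factor, stood at 870, 1072 and 1357 CPM in members of Scramble and 1036 and 888 in JAG2KO, between Xcr1 or Clec9a cells at 2169 ± 358 (SD, n = 5; log2 -0.87 ± 0.12, edgeR, adjusted p = 2.35e-05) and Cd209a cells at 130 ± 55.2 (log2 3.16 ± 0.23, edgeR, adjusted p = 3.13e-08). Batf3, its partner, was level with Xcr1 or Clec9a cells (log2 0.21 ± 0.20, edgeR, adjusted p = 0.421) and above Cd209a cells (log2 2.30 ± 0.20, edgeR, adjusted p = 2.87e-07). Irf4, a cDC2 factor, had 41 UMIs in members and was below Cd209a cells (log2 -2.08 ± 0.29, edgeR, adjusted p = 2.77e-05). Stat4, which relays interleukin 12, stood at 426, 484 and 414 in Scramble against 558 and 451 in JAG2KO and was higher by 5.34 ± 0.24 and 3.86 ± 0.16 (edgeR, adjusted p = 5.99e-10 and 1.65e-10). Zbtb46, a factor of conventional dendritic cells, was higher by 1.03 ± 0.19 and 1.23 ± 0.21 (edgeR, adjusted p = 0.000379 and 0.000218).

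Fewer members than Xcr1 or Clec9a cells passed a count of cell cycle UMIs in every library. A cell counted as cycling with at least 3 UMIs of 8 cell cycle genes, which held for 5.88%, 4.0% and 8.57% of members in Scramble and 4.17% and 2.94% in JAG2KO, against 11.4%, 30.8% and 31.0%, and 48.6% and 42.1% of Xcr1 or Clec9a cells. Cd209a cells, at 1.45%, 7.32% and 2.82% in Scramble libraries and 8.46% and 13.8% in JAG2KO, overlapped the members. These shares were not matched for depth. Of 28 cell cycle genes tested against Xcr1 or Clec9a cells 24 were lower and none higher (median log2 -1.99), and of 19 tested against Cd209a cells 5 were lower. Mki67, a marker of dividing cells, was lower in both comparisons, with log2 differences of -2.53 ± 0.35 and -1.43 ± 0.38 (edgeR, adjusted p = 2.77e-05 and 0.00576). Genes of survival and apoptosis were higher in 12 of 20 tested and 9 of 20, with only Bcl2 lower in either. Bcl2l14 was higher by 3.54 ± 0.25 and 5.62 ± 0.36 (edgeR, adjusted p = 3.47e-08 and 9.86e-09).

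Notch genes were examined because the tumour cells carried a guide against a Notch ligand. Of 43 listed, 17 and 18 were tested against the other classes. Rbpj, the DNA-binding partner of cleaved Notch, stood at 151, 96.9 and 175 CPM in members of Scramble and 161 and 208 in JAG2KO, with overlap, and was lower than in both classes (log2 -1.19 ± 0.17 and -1.15 ± 0.20, edgeR, adjusted p = 4.44e-05 and 0.000197). Notch2, a receptor needed by some cDC2, stood at 31.1, 18.2 and 19.0 in Scramble against 28.6 and 39.9 in JAG2KO and was lower than in Xcr1 or Clec9a cells (log2 -1.17 ± 0.22, edgeR, adjusted p = 0.000528). Jag1, the ligand related to Jag2, had 39 UMIs in members, at 17.8, 18.2 and 22.8 CPM in Scramble libraries and 19.4 and 18.9 in JAG2KO, against 3 UMIs in Xcr1 or Clec9a cells and 1 in Cd209a cells. Il2ra, the interleukin 2 receptor chain, was the single gene of the list higher in both comparisons (log2 5.08 ± 0.36 against Cd209a cells, edgeR, adjusted p = 2.54e-08). Hes1, a Notch target, was at 0 in 3 of the 5 libraries. Its level over the summed members of all libraries was 19.953 CPM, so its RNA came from the remaining libraries only. A summed level does not show how many members carried Hes1 RNA.

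Members with and without Il12b RNA were set side by side for a chosen set of genes. Each member was thinned to 2000 UMIs, which left 272 cells, 84 with a UMI of Il12b and 188 without. Cells with Il12b numbered 7 in Scramble 2, the fewest, and 36 in JAG2KO 1, the most. Irf8 averaged 3.31 ± 1.17 UMIs (SD over 5 libraries) in cells with Il12b and 2.04 ± 0.517 in those without, and was higher in 5 of 5 libraries. Serpinb6b averaged 3.59 ± 0.680 and 2.43 ± 0.434, Ccl22 6.16 ± 1.49 and 4.38 ± 1.47, and Cd200 0.791 ± 0.268 and 0.428 ± 0.0610, also higher in 5 of 5. H2-Ab1 went the other way, at 1.77 ± 1.12 and 3.69 ± 1.16, and was higher with Il12b in 1 of 5 libraries, as was Ccl17 (0.956 ± 0.513 and 1.40 ± 0.725). Cd74 averaged 4.21 ± 0.951 and 6.97 ± 2.38 and was higher with Il12b in 0 of 5. Il6 was higher in 5 of 5, from 8 UMIs with Il12b and 3 without. Batf3 and Cd274 averaged nearly the same in both sets. These values describe cells of the same libraries and were not tested. How many of all genes would be higher in 5 of 5 libraries was not counted.

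Within members, no gene passed the test between JAG2KO and Scramble. Of 3718 genes tested by edgeR 0 were called (0%), 112 had an unadjusted p under 0.05 (43 higher, 69 lower in JAG2KO), and the smallest adjusted p was 0.240. DESeq2 called 2, Spp1 and Ly6e. On simulated counts of this comparison edgeR recovered 88.1% of genes changed 4-fold and 20.4% of those changed 2-fold, so small changes would mostly have gone uncalled. The simulation gave each gene the spread fitted to genes of similar level, and held no single deep cell like that of Scramble 2. The 88.1% therefore does not show that 4-fold changes would have been called here, and larger fitted changes given below were not. The groups did not overlap for 564 of the 3718 genes (15.2%), 300 with both JAG2KO libraries above (8.07%) and 264 below (7.1%). The genes below were named by the smallest p in each direction, among genes with at least 20 CPM and no overlap of the groups. Lack of overlap in all members was thus a condition of the choice and is no separate result for these genes. They did not pass the test unless stated.

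Spp1 (osteopontin), abundant in tumour macrophages, had the smallest p. It stood at 191, 642 and 194 CPM in members of Scramble and 38.9 and 42 in JAG2KO, and both JAG2KO libraries lay below all Scramble libraries. The log2 difference was -3.06 ± 0.53 (SE; edgeR, adjusted p = 0.240). Without the 9 members the Scramble values were 202, 357 and 190 and the JAG2KO values 37.0 and 29.9, and Spp1 was then the 1 gene called of 3589 tested (0.0279%; log2 -2.78 ± 0.33, edgeR, adjusted p = 0.000401). Macrophages showed the same order, at 4287, 3119 and 3106 in the Scramble libraries against 666 and 588 in JAG2KO. The level in the 307 members was 4.72%, 11.4% and 6.11% of that in macrophages of the same Scramble library and 5.55% and 5.09% in JAG2KO, beside 3.26% to 7.37% for Lyz2 and 2.50% to 5.50% for Apoe. Of the 16 macrophage markers, which include Spp1, 12 were tested in members and none was called (median log2 -0.44). Both JAG2KO libraries lay below all Scramble libraries for 5 of the 12, against 7.1% of all genes. This count was made with the 9 members kept in. Of the 10 monocyte markers 3 were tested, none was called and none was without overlap (median log2 -1.46). Whether macrophage or monocyte RNA in the droplets had a part in the differences of Spp1 or of the genes that follow was not tested.

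Ly6e, an interferon-inducible surface protein, stood at 346, 345 and 213 CPM in members of Scramble and 64.0 and 113 in JAG2KO (log2 -1.80 ± 0.36, edgeR, adjusted p = 0.475). The groups did not overlap, but without the 9 members Scramble 2 fell to 44.6, below both JAG2KO libraries. Ly6a, another member of that protein family, stood at 173, 42.4 and 26.6 against 8.0 and 8.40 (log2 -3.30 ± 0.76, edgeR, adjusted p = 0.774), and Ms4a4c at 57.7, 30.3 and 64.6 against 9.14 and 14.7 (log2 -2.19 ± 0.53, edgeR, adjusted p = 0.939). Cxcl2, a neutrophil chemokine, stood at 97.6, 109 and 365 against 61.7 and 46.2, and overlapped without the 9 members, where Scramble 1 was at 43.4 and JAG2KO 1 at 62.8.

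Among genes with higher values in JAG2KO, Mt1, a metallothionein, stood at 79.9, 170 and 98.9 CPM in Scramble libraries and 279 and 227 in JAG2KO, with no overlap (log2 1.15 ± 0.32, edgeR, adjusted p = 0.999). Mt2 stood at 13.3, 18.2 and 7.60 against 45.7 and 39.9 (log2 1.77 ± 0.55). Emsy, a chromatin protein, stood at 26.6, 18.2 and 26.6 against 62.9 and 73.5 (log2 1.45 ± 0.39), and Selenoh, a nuclear selenoprotein, at 8.88, 18.2 and 26.6 against 62.9 and 54.6 (log2 1.67 ± 0.45), all with an edgeR adjusted p = 0.999. The Scramble levels of Mt2, Emsy and Selenoh rest on few UMIs, those of Mt2 on no more than the 3 counts used above as a limit. Col3a1, a collagen, stood at 0, 36.3 and 15.2 against 67.4 and 304 (log2 3.52 ± 0.78, edgeR, adjusted p = 0.725), and without the 9 members at 0, 0 and 15.5 against 11.1 and 16.1, where the groups overlapped.

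**Figure D4:**
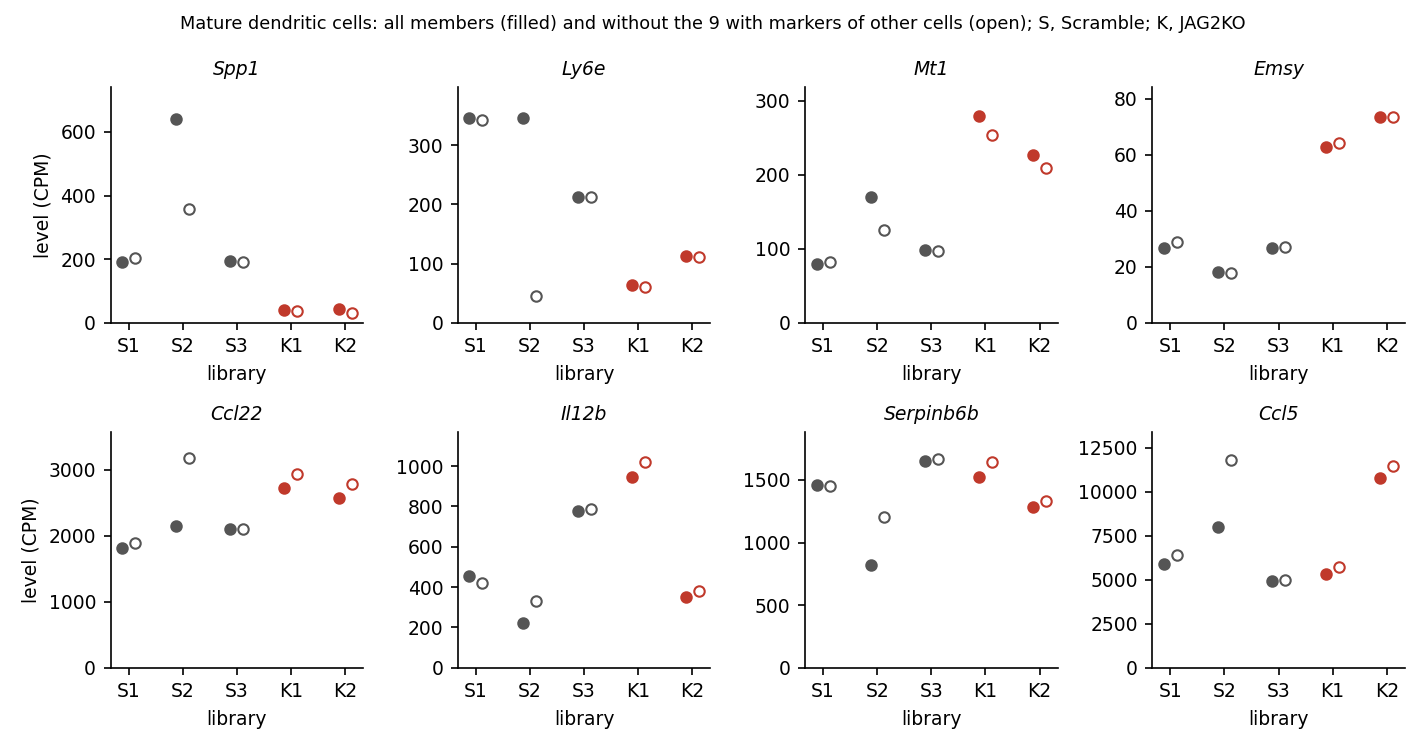
Levels of 8 genes (CPM) in mature dendritic cells of each library, for all 316 members (filled) and for the 307 without markers of other cells (open). Spp1 keeps its order without the 9 cells, with Scramble at 190 or above and JAG2KO at 37.0 or below, while Ly6e of Scramble 2 falls from 345 to 44.6.

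No gene of the lists of maturation and function was called between the groups. The median log2 difference was 0.10 over 33 maturation genes, -0.01 over 13 regulatory, -0.03 over 13 co-stimulation, -0.10 over 13 MHC class II, 0.18 over 23 NF-kB and 0.04 over 8 Notch pathway genes tested, against -0.01 over all genes. Of 15 glycolysis and hypoxia genes tested, 8 had both JAG2KO libraries below all Scramble libraries and none above, with a median of -0.35. Of the NF-kB genes 5 of 23 lay above and none below, and of the mitochondrially encoded genes 4 of 11 lay above and none below, with a median of 0.24. Over all genes the shares were 8.07% above and 7.1% below. These counts of libraries above or below were made on all members only, with the tumour-marker cell of Scramble 2 among them. Without the 9 members with markers of other cells, the medians were -0.33 over 15 glycolysis and hypoxia genes and 0.02 over 24 NF-kB genes. Over 11 mitochondrially encoded genes the median was then 0.26. Il12b was 0.40 ± 0.44 higher in JAG2KO on the log2 scale, Ccl22 0.38 ± 0.24 and Cd274 0.06 ± 0.27 (edgeR, adjusted p = 0.999 for each).

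Shares of members with a UMI of 7 genes were compared after thinning to 2000 UMIs per cell, and none passed after adjustment over the 7. Ccl22 was found in 67.7%, 72.2% and 51.7% of members of Scramble against 81.0% and 80.8% in JAG2KO, a difference of 17.0 percentage points (exact permutation test, p = 0.2, adjusted p = 0.467), without overlap. For Ccl17 they were 19.4%, 27.8% and 10.3% against 28.4% and 39.7%, and for Cd40 48.4%, 44.4% and 41.4% against 37.1% and 25.6% (exact permutation test, p = 0.2 and 0.1, adjusted p = 0.467 for both). The Cd40 difference, -13.4 percentage points, was -3.73 at 1000 UMIs, with overlap, and -7.67 without JAG2KO 2. The Ccl17 difference, 14.9, was 9.29 without JAG2KO 2, and the Ccl22 difference was 10.9 without Scramble 3 and 4.71 unthinned, with overlap. Unthinned, the mean shares were 81.2% and 85.9% for Ccl22, 22.1% and 43.8% for Ccl17 and 61.5% and 54.1% for Cd40. Il12b was found in 35.5%, 27.8% and 31.0% against 35.3% and 23.1% of members, with overlap. In macrophages, taken as a background class, the share at the same depth was 0.0167% to 0.157%, far below the shares in members. Among the cells with at least 2000 UMIs, median depths before thinning were 5044 to 7789 UMIs in members and 6964 to 11534 in macrophages.

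Cd209a cells of the same libraries allowed a test of whether members responded differently. The difference between the 2 JAG2KO effects was tested for 6088 genes, of which 0 were called by edgeR (0%), with 226 at an unadjusted p under 0.05, and 1 (Ccl17) by DESeq2. Without the 9 members 11 of 6083 were called (0.181%), of which Cd81, Rsad2 and Hspa1a were relatively higher in members (0.0493%) and Ccl17, Ccl22, Hist1h1b, Top2a, Ube2c, Stmn1, Pclaf and Ms4a4c relatively lower (0.132%). Leaving out Scramble 2 as a whole gave 14 calls. Within Cd209a cells 15 of 5388 genes were called between JAG2KO and Scramble (0.278%), 6 higher (0.111%) and 9 lower (0.167%). Within Xcr1 or Clec9a cells 7 of 5191 were called (0.135%), 6 higher (0.116%) and 1 lower (0.0193%).

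Vcan and Ly6e were also among the 3 smallest p in each direction, with differences of 4.27 ± 0.93 and -1.66 ± 0.37 on the log2 scale (edgeR, adjusted p = 0.332 for each). For Ly6e the JAG2KO effect was -1.80 ± 0.36 in members and -0.12 ± 0.15 in Cd209a cells (edgeR, adjusted p = 0.475 and 0.909). Neither Vcan nor Ly6e was among the genes called without the 9 members, where Ly6e of Scramble 2 fell below both JAG2KO libraries, as given above. Ccl17 stood out in Cd209a cells. In Cd209a cells it stood at 465, 437 and 425 CPM in Scramble libraries and 1024 and 1965 in JAG2KO (log2 1.75 ± 0.22, edgeR, adjusted p = 0.00135), without overlap. In members, at the values given above, the JAG2KO effect was 0.22 ± 0.29 (edgeR, adjusted p = 0.999). The difference of the effects was -1.49 ± 0.25 (edgeR, adjusted p = 0.103), and -1.56 ± 0.23 without the 9 members (edgeR, adjusted p = 0.000108).

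For Hspa1a, Rsad2 and Hist1h1b the groups did not overlap in Cd209a cells and overlapped in members. Hspa1a, a heat shock protein that tissue dissociation can induce, stood at 1243, 1509 and 1464 CPM in Cd209a cells of Scramble and 527 and 635 in JAG2KO, and at 684, 575 and 852 against 589 and 731 in members (difference 1.20 ± 0.27, edgeR, adjusted p = 0.332, and 0.00751 without the 9). Rsad2, an interferon-induced antiviral protein, stood at 269, 104 and 264 against 93.5 and 18.5 in Cd209a cells and at 31.1, 18.2 and 41.8 against 58.3 and 27.3 in members (difference 2.41 ± 0.46, edgeR, adjusted p = 0.194, and 0.00751 without the 9). Hist1h1b, a histone of dividing cells, stood at 18.3, 15.8 and 9.23 against 112 and 87.4 in Cd209a cells and at 8.88, 24.2 and 26.6 against 11.4 and 4.20 in members (difference -4.02 ± 0.76, edgeR, adjusted p = 0.194, and 0.00751 without the 9). The Hist1h1b levels in members rest on few UMIs.

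**Figure D5:**
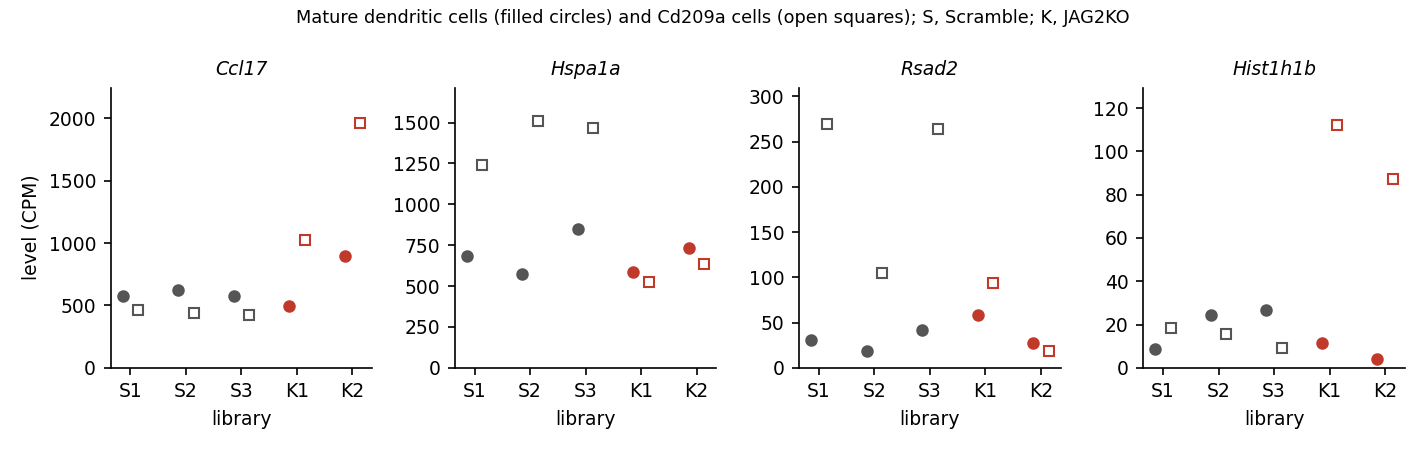
Levels of 4 genes (CPM) per library in mature dendritic cells (filled circles) and Cd209a cells (open squares). Between groups the Cd209a cells separate, with Ccl17 at 425 to 465 in Scramble and 1024 and 1965 in JAG2KO, while mature dendritic cells overlap.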

How the data were processed

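Single-cell RNA of sorted CD45+ cells was read from 5 matrices of whole-number UMI counts for 32285 genes, made by the authors with Cell Ranger 6.0.0, per the file headers, and deposited unnormalised. The submitters' processing notes name GRCm38, mm10 and Seurat. Members and gene lists were chosen with earlier results of these data known.

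Raw counts were summed per library and class, and tested with edgeR 4.0.16 (R 4.3.3), quasi-likelihood with TMM scaling and Benjamini-Hochberg adjustment. JAG2KO was compared with Scramble without a replicate block, classes within libraries, and the 2 JAG2KO effects by an interaction. Rule genes were left out of counts. Shares had exact permutation tests and Clopper-Pearson intervals. DESeq2 1.42.0, other filters and scalings, thinning and leaving out each library were alternatives. In simulated data edgeR recovered, for members against Cd209a cells (6095 genes), 93% of 4-fold and 61% of 2-fold changes, and for JAG2KO (3723 genes) 88.1% and 20.4%. Doublet-scored cells stayed in, 6 members among them, and their removal was an alternative. The genes named were, for JAG2KO, the 5 smallest p in each direction with at least 20 CPM and no overlap, for classes, genes among the 10 largest mean changes each way with at least 50, up to 4 of smallest p per list, for the interaction 3 each way, and a set of known genes. H2-Eb1, Map3k14, Traf2, Traf3, Bcl3, Bcl2, Calr, Pdia3, Lgals9, Vsir, Tgfb1, Cxcr5, Ccr6, Crlf2, Gbp2, Gbp5, Gbp9, Cd81, Ube2c, Stmn1, Pclaf, Top2a and the other genes named in counts of lists fall in part outside that rule and were chosen after their values were seen.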

Additional observations from a re-analysis of the deposited data

How the results depend on the processing

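The count of genes called between JAG2KO and Scramble in mature dendritic cells, 0 in edgeR, was 2 with DESeq2, 36 without a filter on low counts (9 higher, 27 lower), 1 with mitochondrial UMIs of at most 5%, 1 with Ccr7 and Fscn1 of at least 5 UMIs together, 3 in members of at least 3000 UMIs, 1 in members of at most 25000 UMIs, and 1 without the 9 members with markers of other cells. Leaving out 1 library gave 0 to 6, with 1 without Scramble 2, 4 without JAG2KO 1 and 6 without JAG2KO 2. With a replicate block it was 6, and the share folds were 2.67 and 1.79. Same-numbered libraries were not shown to be paired (correlations of deviations 0.079 and 0.039). The count of genes with a different JAG2KO effect in Cd209a cells, 0 in edgeR, was 1 with DESeq2, 18 without a filter, 12 in members of at most 25000 UMIs, 11 without the 9 members, and 0 to 14 on leaving out 1 library, with 14 without Scramble 2. Alternatives to the rule on cells that left a library under 20 members dropped it, and a limit of 1 UMI of C1q left too few libraries to be fitted. The 2 class comparisons stayed within 1.5 times (1606 to 1976 and 1605 to 1950 on leaving out 1 library). Of the values of genes named there, 761 of 764 against Xcr1 or Clec9a cells and 756 of 767 against Cd209a cells kept their direction and side of the threshold. Flt3 passed newly in 3 and Cd83 in 4, and Notch2 no longer passed against Cd209a cells with DESeq2 (log2 -0.87) or without JAG2KO 1 (-0.77). The Ccl17 log2 difference to Cd209a cells, -0.16, was 0.38 with comparator cells free of Ccr7 and Fscn1, 0.012 in members of at most 25000 UMIs, 0.044 without the 9 members, and -0.31 to 0.20 on leaving out 1 library. Differences in shares of members with a UMI also turned sign. For Il12b, -2.22 percentage points, it was 3.77 at 1000 UMIs and -8.36 to 3.91 on leaving out 1 library. For Cd274, 1.0, it was -5.28 unthinned, -5.63 at 1000 UMIs and -2.60 to 6.21, and for Xcr1, 1.20, -0.287 to 2.70. The differences for Cd40, Ccl17 and Ccl22 kept their sign and ran from -19.1 to -7.67, 9.29 to 20.6 and 10.9 to 21.2 on leaving out 1 library, and for Cd40 it was -3.73 at 1000 UMIs. The cause of these changes was not tested. The fold in the share of kept cells ran from 1.54 to 3.42 on leaving out 1 library and that among dendritic cells from 1.66 to 2.05. In Scramble 25 to 35 members per library limit what small changes can be seen.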
